A study of Mus musculus with 6 samples.

Results

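The renin-angiotensin system genes described here were 8 genes chosen by name: Agt, Ace, Cma1, Enpep, Agtr1a, Agtr2, Agtrap and Atp6ap2. All 8 were among the 17441 genes listed in at least 1 library of mouse heart RNA-seq, and 6 of them were listed in all 6 libraries. The libraries came from the part of the heart below the ligature, 3 days after surgery, in 12-week-old male mice on a C57BL/6 background. WT sham mice (2 libraries) had the operation without ligation, WT MI mice (2 libraries) had a myocardial infarction (MI) from tying off the left anterior descending coronary artery, and Card9 KO MI mice (2 libraries) carried a knockout of Card9, an adapter of innate immune signalling, and had the same MI surgery. WT animals were littermates or C57BL/6 mice. No Card9 KO sham library was analysed here, so in any comparison of Card9 KO MI with WT sham the genotype and the infarction cannot be told apart. Expression was given as FPKM, the number of fragments per kilobase of transcript scaled to the number of mapped fragments. That scaling allows for transcript length and depth, but not for differences in composition between libraries. The 10 most abundant genes held 16.1% and 16.4% of summed FPKM in WT sham libraries. They held 10.6% and 10.6% in WT MI libraries and 8.99% and 10.1% in Card9 KO MI libraries. Paired values below are replicate 1 and then replicate 2 of a group.

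In the classical pathway, renin cuts the liver and tissue protein angiotensinogen to angiotensin I, which angiotensin-converting enzyme (ACE) or the mast cell protease chymase turns into angiotensin II. Angiotensin II acts through its type 1 receptor to constrict vessels, retain salt and promote growth and scarring in the heart, while the type 2 receptor is held to oppose many of these effects, and other peptidases shorten or divert the peptides. The system is a main target of drugs given after myocardial infarction.

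The libraries were estimated to hold 3053435 to 4319654 fragments each, so that 3 fragments of Agt correspond to an FPKM of 0.367 to 0.520. Card9 itself stood at 0.99 and 1.03 FPKM in WT sham libraries, 3.39 and 5.08 in WT MI libraries and 9.85 and 6.94 in Card9 KO MI libraries, so that the KO-labelled libraries did not hold less of it than the WT MI libraries. One value covers the whole gene and does not show from which exons the fragments came, Card9 overlaps an opposite-strand transcript (Gm13562) in the annotation, and the groups are named here by their labels. Cardiomyocyte markers were present at high levels in every library (summed FPKM of 7 genes, 22538 to 44404). The sum of 7 macrophage markers was 280 and 229 in WT sham libraries, 1046 and 1355 in WT MI libraries and 2087 and 1472 in Card9 KO MI libraries. The median log2 fold change of the 13120 genes tested was 0.19 for WT MI against WT sham and 0.24 for Card9 KO MI against WT sham, and it moved to −0.03 and −0.02 when the libraries were scaled to their upper quartile. Under that scaling the calls over all genes went from 3637 higher and 1232 lower to 2454 higher and 2351 lower in WT MI against WT sham, and from 4569 and 1875 to 3040 and 3144 in Card9 KO MI against WT sham. Fold changes against WT sham are therefore to be read beside those medians. Because heart tissue holds many cell types, fewer cells of a type and less RNA per cell cannot be told apart.

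The promoters of Agt and Atp6ap2 are shown because these members were called higher in WT MI against WT sham. The 200 bases before each start site were taken from RefSeq on GRCm38.p6, a later build than the mm9 build of the expression values. Agt lies on the minus strand (chr8:124569707-124569906) and Atp6ap2 on the plus strand (chrX:12587559-12587758). Capitals mark matches to TATAAA on either strand, the core of the TATA box, and to TTCNNNGAA, a motif that reads the same on both strands and is recognised by STAT proteins.
Agt: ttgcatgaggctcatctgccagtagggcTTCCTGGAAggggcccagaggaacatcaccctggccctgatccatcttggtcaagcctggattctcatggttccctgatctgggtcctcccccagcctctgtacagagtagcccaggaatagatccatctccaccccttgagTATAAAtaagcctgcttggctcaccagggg
Atp6ap2: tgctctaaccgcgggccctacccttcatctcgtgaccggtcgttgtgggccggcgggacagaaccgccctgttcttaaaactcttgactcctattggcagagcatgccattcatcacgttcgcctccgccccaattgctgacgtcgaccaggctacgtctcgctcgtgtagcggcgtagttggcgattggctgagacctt
In the 250 bases before the start, Agt held 1 TATAAA at position −30, 1 TTCNNNGAA at −172 and 0 CpG dinucleotides. Atp6ap2 held neither motif and 20 CpG dinucleotides in the same window. Of 32851 mouse promoters of this length, 12.4% held TATAAA and 7.02% held TTCNNNGAA, and the median promoter held 6 CpG dinucleotides. A match is a description of the letters and not a site shown to be bound. Of the other members, Ace, Cma1, Enpep, Agtr2 and Agtrap had a promoter in the same set and Agtr1a had none. Enpep, which was not called in any comparison, also held TATAAA, at −52, and TTCNNNGAA, at −141. The Ace promoter with 19 CpG dinucleotides held TATAAA at −31, and the other Ace promoter held neither motif. Cma1, Agtr2 and Agtrap held neither motif.

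By level, Ace was the most abundant member in each of the 3 groups, and Agtr2 and Cma1 were the least abundant. In WT sham the order of mean FPKM was Ace, Agtr1a, Agtrap, Atp6ap2, Enpep, Agt, Cma1 and Agtr2. Ace and Agtr1a overlapped there, as did Enpep and Agt, so neither pair was separated beyond its spread. In WT MI the order was Ace, Agtr1a, Atp6ap2, Agtrap, Agt and Enpep, with Agt ranging across Agtr1a, Atp6ap2 and Agtrap. Atp6ap2 and Agtrap also overlapped each other there. For Card9 KO MI it was Ace, Atp6ap2, Agtr1a, Agtrap, Enpep and Agt, and among these Agtr1a overlapped both Atp6ap2 and Agtrap and Enpep overlapped Agt. By mean FPKM, Ace exceeded 85.1% of the 17441 genes listed in any library in WT sham and 87.4% of them in Card9 KO MI. Agt exceeded 42.7% of the same genes in WT sham libraries, 66.9% in WT MI libraries and 35.0% in Card9 KO MI libraries. Genes not listed in a group were kept in these shares and counted as lower.

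**Figure D1:**
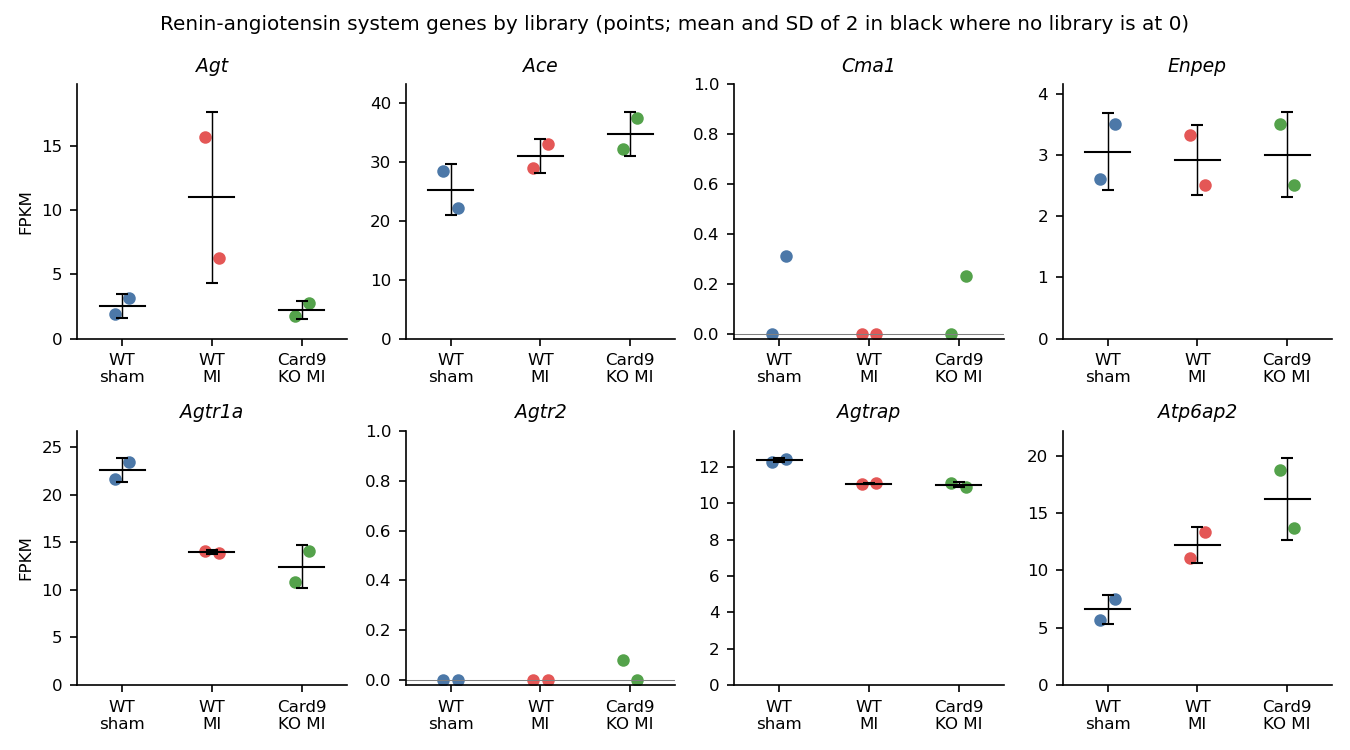
FPKM of the 8 renin-angiotensin system genes in each library (points), with the mean and SD of 2 libraries in black where no library was at 0; each panel has its own axis, which starts at 0 for the 6 tested genes. Agt is highest in the 2 WT MI libraries (15.75 and 6.31), Agtr1a is highest in WT sham, and Atp6ap2 is lowest in WT sham.

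The first question was which members differed after infarction in WT mice. With limma on log2(FPKM + 1) and adjusted p below 0.05 after Benjamini-Hochberg correction over 13120 genes, Agt and Atp6ap2 rose and Agtr1a fell in WT MI against WT sham, while Ace, Enpep and Agtrap did not pass. The 2 of 6 tested members that were called higher compare with 27.7% of all genes tested, and the 1 called lower compares with 9.39%. The members' median log2 fold change was 0.12, beside 0.19 for all genes. The second question was which members differed between genotypes after infarction. Comparing Card9 KO MI with WT MI, 0 of 6 tested members were called higher and 0 lower by limma, against 0.816% and 0.587% of all genes, and 1 member, Agt, had an unadjusted p below 0.05. Against WT sham, Card9 KO MI had Ace and Atp6ap2 called higher (2 of 6, all genes 34.8%) and Agtr1a called lower (1 of 6, all genes 14.3%). The comparisons share libraries, since WT sham enters 2 of them and WT MI enters 2, so the Agt differences from WT sham and from Card9 KO MI both rest on the same WT MI libraries.

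**Figure D2:**
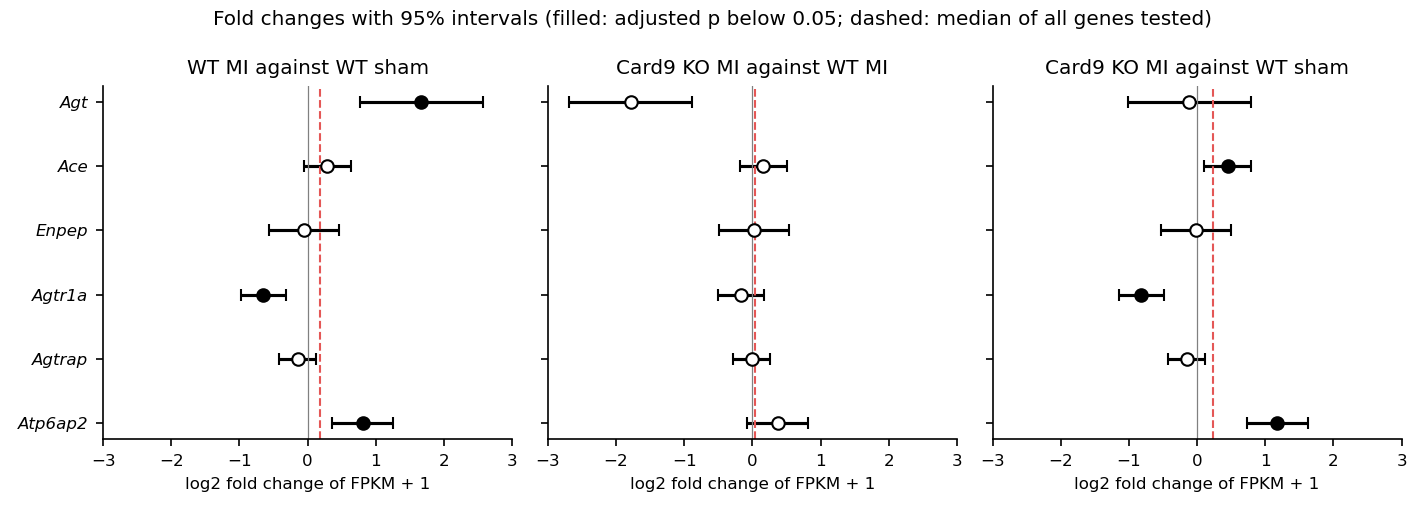
Log2 fold change of FPKM + 1 (horizontal axis) with its 95% interval for the 6 tested members in the 3 comparisons; filled points passed an adjusted p of 0.05 and the dashed line is the median of all genes tested. Agt lies at 1.67 in WT MI against WT sham and at −1.78 in Card9 KO MI against WT MI, and its interval spans 0 in Card9 KO MI against WT sham.

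The study's own thresholds were also applied to group means, namely a fold change of at least 2 and a probability of at least 0.8, where the probability is the share of differences between libraries of the same group that are smaller both as a ratio and in FPKM. In WT MI against WT sham, 1 member (Agt) was then higher and 0 were lower, beside 6.06% and 0.906% of all genes compared. For Card9 KO MI against WT MI, 0 were higher and 1 (Agt) was lower, beside 0.728% and 0.332%. For Card9 KO MI against WT sham, 1 (Atp6ap2) was higher and 0 were lower, beside 8.56% and 1.94%. The Agt call between the genotypes was thus made under these thresholds and not by limma.

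Agt (chromosome 8, 127080434 to 127093606, minus strand, mm9) encodes angiotensinogen, the substrate from which all angiotensin peptides are cut. Its FPKM was 1.88 and 3.20 in the WT sham libraries, 15.75 and 6.31 in WT MI libraries and 1.76 and 2.74 in Card9 KO MI libraries. Both WT MI libraries lay above all 4 others, the first of them far above the second, and the WT sham and Card9 KO MI libraries overlapped. As estimated fragments, these levels correspond to 11.3 and 18.5 in WT sham libraries, 120 and 47.4 in WT MI libraries and 14.4 and 21.4 in Card9 KO MI libraries.

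Mean Agt FPKM was 4.34-fold higher in WT MI (11.03 ± 6.68, SD, n = 2) than in WT sham (2.54 ± 0.933, SD, n = 2). The log2 fold change was 1.67 with a standard error of 0.39 and a 95% interval of 0.77 to 2.57 (limma, adjusted p = 0.012). The call did not pass without WT MI replicate 1 (1.07, adjusted p = 0.063) or without WT sham replicate 1 (1.40, adjusted p = 0.068), and with a pseudocount of 5 the change was 1.03 and kept its call. The Card9 KO MI mean was 2.25 ± 0.693 (SD, n = 2), a ratio of 0.204 to WT MI. The difference was −1.78 on the log2 scale with a standard error of 0.39 and an interval of −2.68 to −0.89, and limma gave a p of 0.002 and an adjusted p of 0.072. Over 14 alternative settings the adjusted p ran from 0.056 to 0.31, and the difference was −1.19 without the first WT MI library (replicate 1) and −2.38 without the other (replicate 2). Agt is one of the genes that the study displayed from these same libraries as differing between WT MI and Card9 KO MI, so its value in that comparison is not independent evidence of its direction. Set against WT sham, Card9 KO MI differed by −0.11 (−1.01 to 0.78, adjusted p = 0.827).

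The 2 tested genes whose centred log2 profile over the 6 libraries lay closest to Agt were Tmem254b and Lrg1, at a root mean square difference of 0.25 and 0.35. Tmem254b stood at 5.92 and 8.30 FPKM in WT sham libraries, 24.31 and 14.02 in WT MI libraries and 5.80 and 8.5 in Card9 KO MI libraries. Lrg1, which encodes a secreted leucine-rich glycoprotein of the acute phase, stood at 32.55 and 37.11, 121 and 103, and 32.80 and 28.47. Both are, like Agt, among the genes the study displayed. The likeness was ranked over 6 libraries of 3 groups and describes these libraries.

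Markers of cell types moved between the same libraries. The sum of 5 neutrophil markers was 7.51 and 5.40 FPKM in WT sham libraries, 205 and 88.8 in WT MI libraries and 55.8 and 43.8 in Card9 KO MI libraries, and so was highest in the library with the highest Agt. All 5 of these markers were called higher in WT MI against WT sham and 0 of 5 were called lower in Card9 KO MI against WT MI by limma, with 2 at an unadjusted p below 0.05, beside 27.7% and 0.587% of all genes. The 5 adipocyte markers summed to 4.78 and 3.47, 13.68 and 3.21, and 0.99 and 9.58, with Lep at 0 in all 6 libraries and Plin1, Cfd and Retn at 0 in some. The erythroid markers Alas2 and Hba-a1 summed to 773 and 311 in WT sham libraries, 1411 and 1993 in WT MI libraries and 1273 and 701 in Card9 KO MI libraries. The other erythroid marker, Hbb-bt, was not listed in any of the 6, which does not show whether the annotation used held it. Alas2 and Hba-a1 were both called higher in WT MI against WT sham, by 1.34 and 1.77 on the log2 scale, and between Card9 KO MI and WT MI they differed by −0.76 (adjusted p = 0.190) and −0.83 (adjusted p = 0.332). Macrophage and fibroblast sums were higher in Card9 KO MI than in WT MI, unlike Agt. In that comparison limma called 0 of 7 macrophage markers. It called 1 of 6 fibroblast markers higher (Col1a1) and 0 lower, beside 0.816% and 0.587% of all genes. The fibroblast list was split, since Pdgfra and Dcn had lower means in Card9 KO MI. Pdgfra was at 15.20 and 15.87 FPKM in WT MI libraries and 10.64 and 10.43 in Card9 KO MI libraries. The part of these cell types in the Agt values was not tested.

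**Figure D3:**
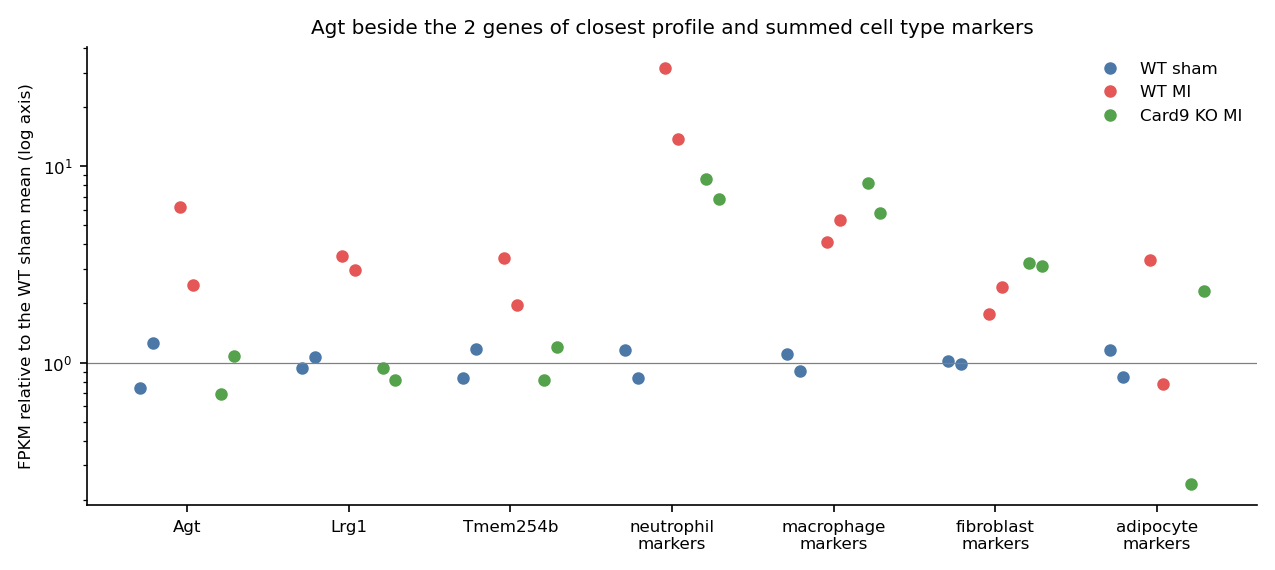
FPKM of Agt, of the 2 genes with the closest profile and of 4 summed marker lists, each divided by its WT sham mean and drawn on a log axis, with 1 point per library. Agt is near 1 in Card9 KO MI, and so are Lrg1 and Tmem254b, which were chosen for their likeness to Agt over these same libraries. Neutrophil, macrophage and fibroblast markers remain above 1 there, and adipocyte markers lie on both sides of 1.

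Ace (chromosome 11, 105829259 to 105851278, plus strand) encodes the enzyme that removes 2 residues from angiotensin I to give angiotensin II and also inactivates bradykinin. It stood at 28.42 and 22.21 FPKM in WT sham libraries, 29.03 and 33.03 in WT MI libraries and 32.17 and 37.47 in Card9 KO MI libraries. The lowest value of each infarct group lay above both WT sham libraries, and the infarct groups overlapped each other. In WT MI against WT sham the log2 fold change was 0.29 (−0.05 to 0.63, adjusted p = 0.163), and in Card9 KO MI against WT MI it was 0.16 (−0.18 to 0.50, adjusted p = 0.597). Card9 KO MI exceeded WT sham by 0.45 (standard error 0.15, interval 0.11 to 0.79, limma adjusted p = 0.037), beside an all-gene median of 0.24. This call was kept in 4 of 14 alternatives, and under upper-quartile scaling the difference was 0.16 (adjusted p = 0.423). Without WT sham replicate 2 it was 0.28 on the log2 scale (adjusted p = 0.194), without Card9 KO MI replicate 1 it was 0.56 (adjusted p = 0.054) and without Card9 KO MI replicate 2 it was 0.34 (adjusted p = 0.169). The 6 endothelial markers summed to 288 and 273 FPKM in WT sham libraries, 305 and 294 in WT MI libraries and 350 and 348 in Card9 KO MI libraries. In Card9 KO MI against WT sham, 3 of the 6 were called higher (Cdh5, Pecam1 and Vwf) and 1 lower (Kdr), beside 34.8% and 14.3% of all genes. Their median log2 change was 0.37, and the part of endothelial cells in the Ace values was not tested. An antisense transcript, Gm11651, overlaps Ace in the annotation, and no source used here states that fragments were counted by strand, so the 2 cannot be told apart. The genes with the closest profile to Ace were Dnaja1 and Dnttip1, at root mean square differences of 0.03 and 0.05.

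Cma1 (chromosome 14, 56560290 to 56563498, minus strand) encodes a mast cell chymase. It was listed at 0.31 FPKM in WT sham replicate 2 and 0.23 in Card9 KO MI replicate 2 and was at 0 in the other 4 libraries. Each listed value was worth an estimated 1.02 fragments, below the 0.647 to 0.915 FPKM that 3 fragments would give, and no difference was detectable at this depth. The defining mast cell marker Ms4a2 was at 0 in all 6 libraries, Cpa3, Mcpt4, Tpsab1 and Fcer1a were at 0 in at least 1, and the 8 mast cell markers summed to 5.40 to 9.57 FPKM. The other 3, Kit, Tpsb2 and Hdc, were listed in all 6 libraries. Of the 2 tested, Kit and Hdc, limma called Kit higher in both infarct groups against WT sham and did not call Hdc. The shares of all genes called higher were 27.7% and 34.8%. Kit stood at 1.51 and 2.01 FPKM in WT sham libraries, 5.52 and 3.93 in WT MI libraries and 5.36 and 4.11 in Card9 KO MI libraries.

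Enpep (chromosome 3, 128972093 to 129035638, minus strand) encodes aminopeptidase A, which trims angiotensin II to angiotensin III. It stood at 2.61 and 3.50 FPKM in WT sham libraries, 3.32 and 2.51 in WT MI libraries and 3.50 and 2.51 in Card9 KO MI libraries. The 3 groups overlapped fully. The log2 differences were −0.05 (−0.56 to 0.46), 0.03 (−0.48 to 0.54) and −0.02 (−0.53 to 0.49) for WT MI against WT sham, Card9 KO MI against WT MI and Card9 KO MI against WT sham, with limma adjusted p of 0.881, 0.961 and 0.948. These intervals leave room for changes of up to about 0.5 on the log2 scale in either direction.

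Agtr1a (chromosome 13, 30428310 to 30474736, plus strand) encodes the type 1 receptor, through which most known actions of angiotensin II run. Its FPKM was 21.69 and 23.49 in WT sham libraries, 14.15 and 13.89 in WT MI libraries and 10.86 and 14.06 in Card9 KO MI libraries. All 4 infarct libraries lay below both WT sham libraries, and the infarct groups overlapped. WT MI was lower than WT sham by a log2 fold change of −0.65 with a standard error of 0.14 and an interval of −0.98 to −0.32 (limma, adjusted p = 0.010). Mean FPKM was 22.59 ± 1.27 in WT sham and 14.02 ± 0.184 in WT MI (SD, n = 2 each), a ratio of 0.621. The adjusted p rose to between 0.054 and 0.056 without WT sham replicate 2, WT MI replicate 1 or WT MI replicate 2, with differences of −0.60, −0.66 and −0.64. Card9 KO MI was lower than WT sham by −0.82 (interval −1.15 to −0.49, adjusted p = 0.002), and this call held in 14 of 14 alternatives. The genotypes differed by −0.17 after infarction (−0.50 to 0.16, adjusted p = 0.563).

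The genes closest in profile to Agtr1a were Fh1, a mitochondrial enzyme of the citric acid cycle, and Lynx1, at root mean square differences of 0.03 each. Cardiomyocyte markers summed to 42607 and 44404 FPKM in WT sham libraries, 27254 and 27891 in WT MI libraries and 22538 and 26201 in Card9 KO MI libraries, with 5 of 7 called lower after MI in WT and 7 of 7 in the KO-labelled libraries, each against WT sham, beside 9.39% and 14.3% of all genes. The 6 pericyte markers summed to 239 and 269, 189 and 185, and 194 and 206, and the list was split. Kcnj8, Rgs5 and Abcc9 were called lower in both infarct groups against WT sham. Pdgfrb was called higher in both, and Cspg4 and Notch3 were called higher in Card9 KO MI. These calls make 1 higher and 3 lower of 6 in WT MI, beside 27.7% and 9.39% of all genes. For Card9 KO MI they make 3 higher and 3 lower, beside 34.8% and 14.3%. The sum of the 4 smooth muscle markers went the other way from Agtr1a, at 56.2 and 74.6, 164 and 152, and 393 and 367. Acta2, Cnn1 and Tagln were called higher in WT MI against WT sham, and Myh11 was not (log2 fold change −0.02). In Card9 KO MI against WT sham 4 of 4 were called higher. The shares of all genes called higher were 27.7% and 34.8%. The part of these cells in the Agtr1a values was not tested.

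Agtr2 (chromosome X, 21061670 to 21066290, plus strand) encodes the type 2 receptor. It was listed at 0.08 FPKM in Card9 KO MI replicate 1, an estimated 1.13 fragments, and at 0 in the other 5 libraries. A level of 3 fragments would be 0.212 to 0.299 FPKM, so no comparison of the groups was possible at this depth. Agtr1b, the other type 1 receptor gene of rodents, was listed at 0.12 in 1 Card9 KO MI library and at 0 elsewhere, and Mas1, the receptor of angiotensin 1-7, ran from 0 to 0.58 and was not tested.

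Agtrap (chromosome 4, 147451170 to 147462140, minus strand) encodes a protein that binds the type 1 receptor and promotes its internalization. Its values were 12.30 and 12.46 FPKM in WT sham libraries, 11.08 and 11.12 in WT MI libraries and 11.12 and 10.93 in Card9 KO MI libraries. They varied little, and all 4 infarct libraries were below both WT sham libraries. The log2 difference from WT sham was −0.15 in WT MI (−0.42 to 0.13, adjusted p = 0.370) and −0.15 in Card9 KO MI (−0.43 to 0.12, adjusted p = 0.311). Under upper-quartile scaling Agtrap was called lower, at −0.38 in WT MI (adjusted p = 0.039) and −0.43 in Card9 KO MI (adjusted p = 0.017), and under quantile normalization it was called lower in both as well. Within each library, where scaling cancels, the ratio of Agtr1a to Agtrap FPKM was 1.76 and 1.89 in WT sham libraries, 1.28 and 1.25 in WT MI libraries and 0.977 and 1.29 in Card9 KO MI libraries. The ratio was lower in all 4 infarct libraries than in both WT sham libraries, and it was not tested.

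Atp6ap2 (chromosome X, 12164927 to 12194175, plus strand) encodes the (pro)renin receptor, which is also an accessory protein of the vacuolar proton pump (V-ATPase). It stood at 5.71 and 7.48 FPKM in WT sham libraries, 11.11 and 13.34 in WT MI libraries and 18.73 and 13.72 in Card9 KO MI libraries. The groups did not overlap, with WT sham lowest and Card9 KO MI highest, although the lower Card9 KO MI value was close to the higher WT MI value. WT MI exceeded WT sham by 0.80 on the log2 scale (standard error 0.19, interval 0.36 to 1.25, limma adjusted p = 0.014), and mean FPKM was 1.85-fold higher. This call was lost under quantile normalization (0.53, adjusted p = 0.063), without WT MI replicate 2 (0.68, adjusted p = 0.092) and without WT sham replicate 1 (0.64, adjusted p = 0.073). Card9 KO MI exceeded WT sham by 1.18 (0.73 to 1.62, adjusted p = 0.002), with a call in 14 of 14 alternatives, and mean FPKM was 2.46-fold higher. Between genotypes after infarction the difference was 0.37 (−0.08 to 0.82, adjusted p = 0.332).

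Because Atp6ap2 belongs to the proton pump, 16 other genes of that complex were read beside it. For this and the following lists, the background is the share of all genes called in each comparison, given above, and the all-gene median of 0.19 for WT MI against WT sham, 0.04 for Card9 KO MI against WT MI and 0.24 for Card9 KO MI against WT sham. In WT MI against WT sham, 9 of 16 were called higher and 0 lower, and the median change was 0.40 on the log2 scale, and the count of higher genes ran from 5 to 10 over the alternatives. Atp6v1h rose by 1.48, Atp6v1a by 1.20, Atp6v0e by 1.08 and Atp6v0d1 by 0.72 (adjusted p of 0.0025 or less), and these kept their calls in 14 of 14 alternatives. For Card9 KO MI against WT sham 11 of 16 were called higher and 0 lower (median 0.65; 8 to 11 higher and 0 to 2 lower over the alternatives), and in Card9 KO MI against WT MI 0 of 16 were called by limma, with 3 at an unadjusted p below 0.05. Atp6ap1, the other accessory subunit, was at 79.79 and 80.37 FPKM in WT sham libraries, 95.56 and 101.64 in WT MI libraries and 98.90 and 96.84 in Card9 KO MI libraries. Within each library the ratio of Atp6ap2 to Atp6ap1 was 0.072 and 0.093 in WT sham libraries, 0.116 and 0.131 in WT MI libraries and 0.189 and 0.142 in Card9 KO MI libraries. The ratio was thus lowest in WT sham and highest in Card9 KO MI, without overlap. Macrophage markers, whose sums are given above, rose with Atp6ap2 from WT sham to WT MI and were called higher for 7 of 7 genes, and their part in its values was not tested. The profiles closest to Atp6ap2 were those of Snrpe and Pygo2, at root mean square differences of 0.06 and 0.07.

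**Figure D4:**
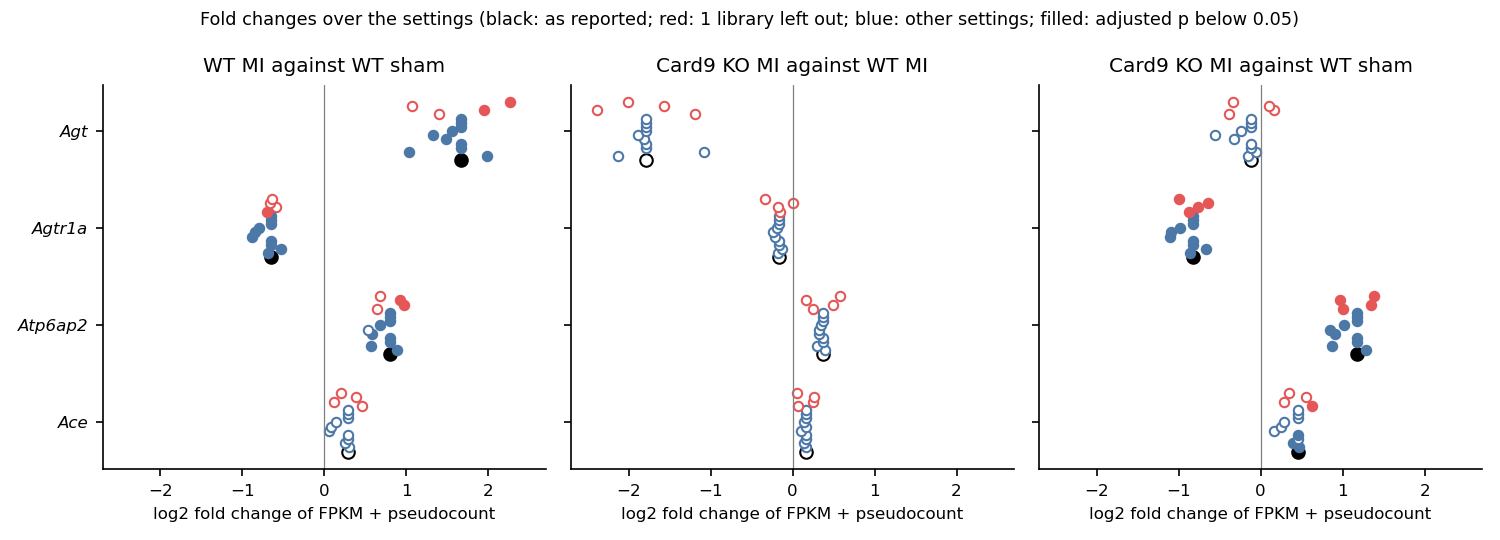
Log2 fold change of Agt, Agtr1a, Atp6ap2 and Ace (horizontal axis) in the 3 comparisons as reported (black), with 1 library left out (red) and under the other settings (blue); filled points passed an adjusted p of 0.05. Agt between the genotypes stays below 0 and unfilled throughout, from −2.38 to −1.08, and Atp6ap2 and Agtr1a in Card9 KO MI against WT sham are filled throughout.

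The remaining genes of the pathway were read from a list of 21. Renin itself (Ren1) was at 0 in all 6 libraries, where 3 fragments would be 0.436 to 0.617 FPKM, and Ren2, Mrgprd, Cma2, Ctsg and Klk1 were not listed either. Of the 15 genes listed in any library, 10 reached 1 FPKM in 2 or more libraries and were tested. In WT MI against WT sham 6 of these 10 were called higher (Anpep, Ctsa, Rnpep, Thop1, Prcp and Dpp3) and 1 lower (Mme), with a median of 0.57, and over the alternatives 4 to 7 were higher and 0 to 1 lower. Rnpep kept its call there in 8 of 14 alternatives and Thop1 in 9 of 14, both losing it under upper-quartile scaling, under quantile normalization and without WT sham replicate 1 or either WT MI library. Between the genotypes 1 was called higher in Card9 KO MI (Anpep) and 0 lower, with a median of 0.11. Against WT sham, Card9 KO MI had 5 called higher (Anpep, Ctsa, Rnpep, Prcp and Dpp3) and 1 lower (Mme), with a median of 0.67, and 5 to 6 were higher and 0 to 2 lower over the alternatives. Anpep, Ctsa, Prcp and Dpp3 kept their calls against WT sham in 14 of 14 alternatives for both infarct groups.

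Among the peptidases that shorten angiotensin peptides, Anpep, which encodes aminopeptidase N, had the largest of the 10 log2 changes in WT MI against WT sham. It stood at 4.93 and 4.48 FPKM in WT sham libraries, 11.71 and 14.61 in WT MI libraries and 34.74 and 24.03 in Card9 KO MI libraries, so that the 3 groups were separate. WT MI exceeded WT sham by 1.31 (standard error 0.19, adjusted p = 0.002), and Card9 KO MI exceeded WT MI by 1.09 (standard error 0.19, adjusted p = 0.048). The second of these calls was kept in 5 of 14 alternatives and was lost when any 1 of the 4 infarct libraries was left out. Dpp3, a dipeptidyl peptidase that degrades angiotensin II, went from 9.15 and 8.57 in WT sham to 15.23 and 17.74 in WT MI libraries and 20.17 and 17.51 in Card9 KO MI libraries. Mme, which encodes neprilysin, a source of angiotensin 1-7, fell from 2.88 and 3.47 in WT sham to 1.39 and 1.60 in WT MI libraries and 1.19 and 1.13 in Card9 KO MI libraries. Its difference in WT MI was −0.74 (adjusted p = 0.022), and this call did not pass without WT sham replicate 2, WT MI replicate 1 or WT MI replicate 2.

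The lysosomal carboxypeptidases Ctsa and Prcp, the second of which cleaves angiotensin II, also rose after infarction. Prcp was at 5.30 and 3.32 FPKM in WT sham libraries, 10.78 and 10.66 in WT MI libraries and 19.95 and 14.13 in Card9 KO MI libraries, with a log2 difference of 1.17 in WT MI (adjusted p = 0.005) and 1.77 in Card9 KO MI (adjusted p = 4.9e-04) against WT sham. Ctsa was at 58.89 and 59.68, 90.27 and 108.59, and 145 and 118, with differences of 0.73 (adjusted p = 0.004) and 1.13 (adjusted p = 3.3e-04). Macrophage markers rose in the same libraries, and their part was not tested here.

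**Figure D5:**
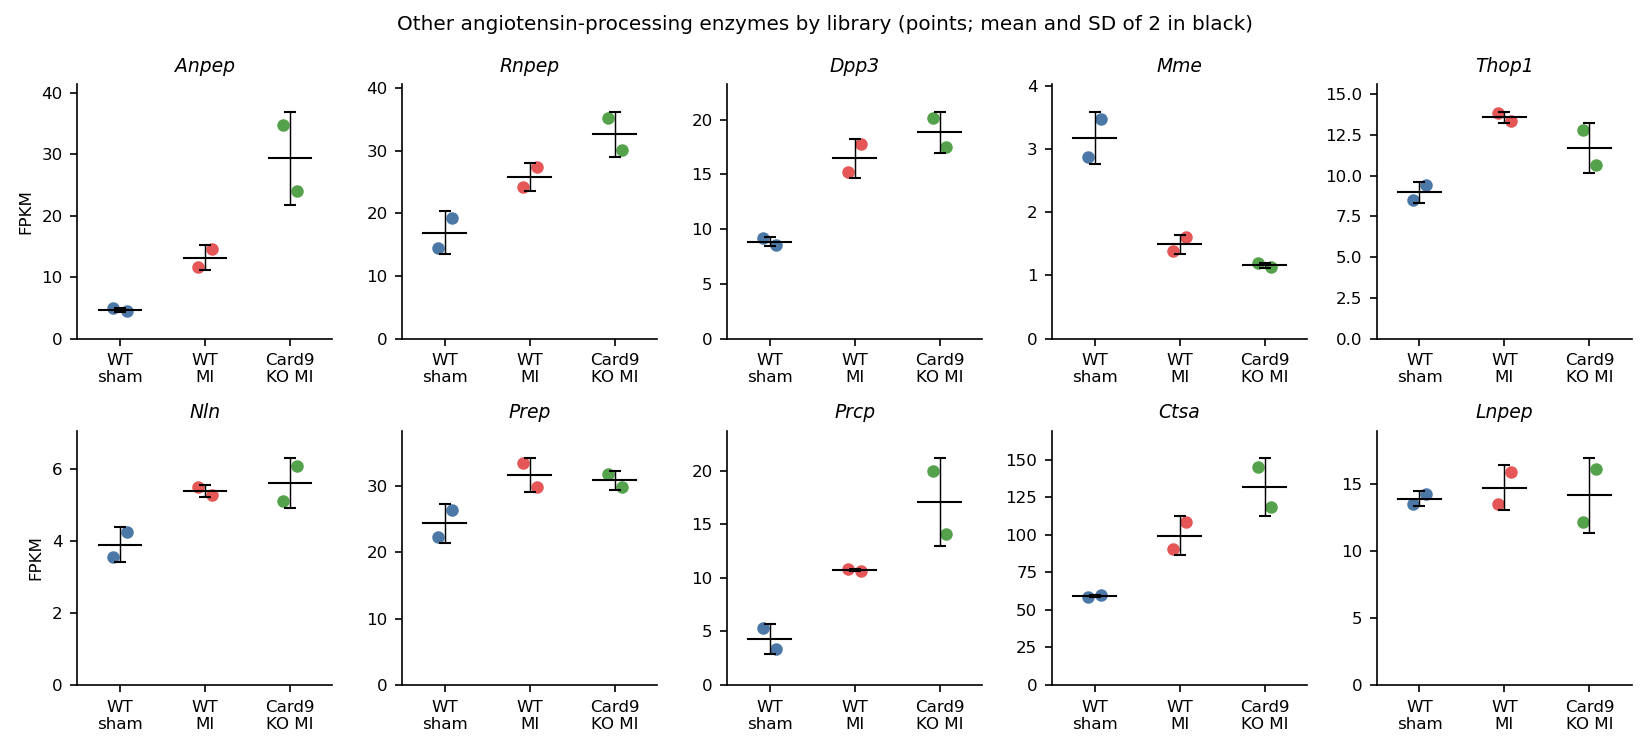
FPKM of the 10 tested genes from the list of other renin-angiotensin genes in each library (points), with the mean and SD of 2 libraries in black and axes from 0. Anpep, Dpp3, Prcp and Ctsa are lowest in WT sham, Mme is highest there, and Lnpep overlaps across the groups.

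Downstream of the receptors, 16 genes of type 1 receptor signalling were tested. In WT MI against WT sham 7 were called higher and 3 lower, with a median of 0.09, and over the alternatives the counts ran from 3 to 7 and from 1 to 3. Arrb2, which encodes a β-arrestin that uncouples and internalizes the receptor, rose from 10.79 and 10.58 FPKM to 31.17 and 39.77, a log2 change of 1.63 (adjusted p = 3.1e-04). Prkcd, a protein kinase C, rose by 1.43 (adjusted p = 1.3e-04), whereas Prkce, another member of that family, fell by 0.74 (adjusted p = 0.008) and lost its call without WT MI replicate 1. Rgs4, which speeds the shut-off of Gq signals, was at 7.67 and 12.22 in WT sham libraries, 4 and 3.85 in WT MI libraries and 10.96 and 11.41 in Card9 KO MI libraries. WT MI lay below WT sham (−1.12, adjusted p = 0.004) and Card9 KO MI above WT MI (1.31, adjusted p = 0.035), the 1 call of 16 between the genotypes. That call was kept in 7 of 14 alternatives and was lost when any 1 of the 4 infarct libraries was left out. Against WT sham, Card9 KO MI had 8 of 16 higher and 2 lower (median 0.42), with 5 to 9 higher over the alternatives.

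In the aldosterone arm, 3 of 5 genes were tested. Cyp11b2, which encodes aldosterone synthase, was at 0 in all 6 libraries. Nr3c2, the mineralocorticoid receptor gene, fell from 5.98 and 5.28 FPKM in WT sham to 1.62 and 2.28 in WT MI libraries and 1.52 and 1.70 in Card9 KO MI libraries. The differences from WT sham were −1.18 (adjusted p = 0.003) and −1.34 (adjusted p = 0.001). Hsd11b1, which regenerates active glucocorticoid, was at 9.66 and 8.04, 7.55 and 13.15, and 3.29 and 3.24. It was lower in Card9 KO MI than in WT MI (−1.37, adjusted p = 0.047), a call kept in 5 of 14 alternatives and lost when any 1 of the 4 infarct libraries was left out. Sgk1, a kinase that aldosterone induces, did not pass in any comparison.

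Of 12 genes known to respond to angiotensin II, 9 were called higher and 0 lower in WT MI against WT sham, with a median of 2.48. Against WT sham, Card9 KO MI had 10 higher and 0 lower, with a median of 2.77. Over the alternatives the counts of higher genes ran from 7 to 11 and from 8 to 12, and 0 to 1 were lower. These genes also respond to other signals of the infarct. Ccn2, which encodes a matrix growth factor, rose by 2.65 in WT MI libraries and 2.86 in Card9 KO MI libraries. Il6 was listed at 0 in both WT sham libraries and at 5.08 and 5.94 in WT MI libraries and 4.34 and 6.79 in Card9 KO MI libraries. Between the genotypes 1 gene was called, Postn, which encodes the matrix protein periostin. Postn was at 24.64 and 16.85 FPKM in WT sham libraries, 184 and 241 in WT MI libraries and 626 and 627.0 in Card9 KO MI libraries, with a difference of 1.57 between Card9 KO MI and WT MI (adjusted p = 0.016, kept in 8 of 14 alternatives and lost when any 1 infarct library was left out). The fibroblast markers summed to 413 and 402, 724 and 991, and 1318 and 1272 in the same order. Between the genotypes 1 of these 6 markers was called higher (Col1a1), and Pdgfra and Dcn had lower means in Card9 KO MI than in WT MI. The part of fibroblasts in the Postn values was not tested.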

How the data were processed

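RNA-seq of mouse heart tissue was analysed in 6 libraries that fall, by their labels, into 3 groups of 2. The authors sequenced enriched mRNA on an Illumina HiSeq machine and mapped the filtered reads to mm9; the submitters' processing notes name BWA and Bowtie2. They deposited 1 FPKM value per gene and library, with 2 decimals and no read counts. Of 17441 gene numbers, 17390 had a symbol. Genes absent from a library's table were set to 0, so a 0 in all 6 libraries does not show whether the annotation used held the gene.

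Members and gene lists were chosen with earlier results of these data known. The genes named are the 8 members, Card9, the listed genes, and for each member called in a comparison the 2 tested genes with the smallest root mean square difference in centred log2(FPKM + 1). The test was limma 3.58.1 (R 4.3.3; lmFit and eBayes with trend, all 3 groups in one fit) on log2(FPKM + 1), over the 13120 genes that reached 1 FPKM in 2 or more libraries, with Benjamini-Hochberg correction and an adjusted p threshold of 0.05. Fold changes on this scale understate changes of low genes. Intervals are 95% and two-sided. Each sample is labelled as a separate replicate, but no source ties it to 1 animal, so p-values measure the spread between these libraries.

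Fragments per library were estimated from the spacing of the lowest FPKM values of genes with 1 coding transcript (an error of at most 1.27% in simulated libraries). Between 63.9% and 68.4% of low values came within 0.1 of a whole fragment, so counts were not rebuilt and no count test was run. Estimates cover counting error only. Positions are from GENCODE vM1 on mm9, and promoters from RefSeq on GRCm38.p6. Tables were made in Python 3.11.15 with numpy 2.4.6 and pandas 2.3.3. NOIseq was not installed, so the study's thresholds were applied to recomputed group means, with 0 replaced by 0.005. Alternatives were other pseudocounts, filters, scalings and fits, the replicate block, and leaving out each library. The fits were tested on simulated data.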

Additional observations from a re-analysis of the deposited data

How the results depend on the processing

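In WT MI against WT sham, the count of members called higher (2) was 1 under quantile normalization and 1 under the study's thresholds (Agt each time), and 0 to 2 when 1 library was left out. The count called lower (1) was 2 under upper-quartile scaling and 2 under quantile normalization, where Agtrap joined Agtr1a, 0 under the study's thresholds, and 0 to 1 with 1 library left out. In Card9 KO MI against WT MI, the count called lower (0) became 1 (Agt) under the study's thresholds. In Card9 KO MI against WT sham, the count called higher (2) was 1 (Atp6ap2) with no filter, without trend, with the replicate block, when the 2 groups were fitted alone, under the study's thresholds and under each other scaling (upper-quartile, quantile, and to the sum left by the top 100 genes), and 1 to 2 with 1 library left out. The count called lower (1) was 2 under upper-quartile scaling and 2 under quantile normalization, and 0 under the study's thresholds. The cause of these changes was not tested.

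Differences near 0 changed sign in some settings. With 1 library left out, Enpep ran from −0.21 to 0.11 in WT MI against WT sham, −0.15 to 0.21 in Card9 KO MI against WT MI, and −0.20 to 0.16 in Card9 KO MI against WT sham. Agtr1a and Agtrap ran from −0.34 to 0.0039 and −0.020 to 0.0024 in Card9 KO MI against WT MI, and Agt ran from −0.39 to 0.16 in Card9 KO MI against WT sham. Enpep in Card9 KO MI against WT MI was −0.011 under upper-quartile scaling and −0.078 under quantile normalization.

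The replicate numbers share only a number: deviations of same-numbered libraries from their group means correlated at 0.0024, −0.0083 and 0.020 across genes. With the replicate block, the all-gene calls came to 3503 higher, 1148 lower in WT MI against WT sham, 45 and 26 (from 107 and 77) in Card9 KO MI against WT MI, 4419 and 1822 in Card9 KO MI against WT sham, and among the member calls it changed that of Ace in Card9 KO MI against WT sham (0.45, adjusted p = 0.056). Leaving out 1 infarct library left 3 to 11 genes called higher and 5 to 9 called lower between the genotypes. Each group had 2 libraries, and leaving out 1 left a lone library assumed to vary like the others. Enpep had no value at a mean FPKM of at least 5. Cma1 and Agtr2 were at about 1 fragment where listed and could not be compared at this depth.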
